A study of Mus musculus with 12 samples.

Results

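A set of 10 metabolic genes was followed in fetal mouse gonadal somatic cells with 1 or 2 copies of a mutant allele of Kdm3a. The genes were Ppara, Ppargc1a, Acadm, Acadl, Acadvl, Cpt1a, Cpt2, Hadha, Ehhadh and Apoc1, which have been described as targets of Kdm3a in adult muscle and fat, and they were found on the arrays through the RefSeq accession of each probe. All 10 were measured, by 12 probes, among 13264 named genes and 19178 features tested in all.

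Kdm3a, named Jmjd1a in the labels, encodes an enzyme that removes methyl groups from lysine 9 of histone H3, a mark of silent chromatin. Embryos were taken at embryonic day 11.5, before the gonad is visibly a testis or an ovary, and the cells of the dissociated gonads and mesonephroi were pulled out with magnetic beads through CD271 expressed from an Nr5a1/CD271 transgene, Nr5a1 being active in gonadal somatic cells and in steroid-producing cells. RNA was hybridised embryo by embryo to 12 arrays, 3 for each of 4 groups: control females and control males, heterozygous for the Jmjd1a mutant allele, and mutant females and mutant males, homozygous for it. All 4 groups therefore carried the transgene and at least 1 mutant allele, and wild-type embryos were not analysed here.

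Ppara is a nuclear receptor that is activated by fatty acids and binds DNA together with a retinoid X receptor, and Ppargc1a is a coactivator that works with it and with other receptors. In liver, muscle and brown fat they switch on the enzymes that carry fatty acids into the mitochondrion and shorten them there, and the peroxisomal enzymes that shorten longer chains. Apoc1 belongs to the process only at its edge: it encodes a small apolipoprotein of the plasma lipoproteins, made mostly in liver and in macrophages.

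Receptors of this family recognise the half-site AGGTCA, and Ppara with its partner binds 2 copies separated by 1 base. RefSeq promoters of GRCm38.p6, running from 250 bases before to 50 after the start of the gene, were found for 9 of the 10 genes, all but Apoc1. The paired element AGGTCANAGGTCA was in 0 of the 9 and in 13 of 32851 promoters (0.0396%), both strands being read. The element TCAAGGTCA, bound by estrogen-related receptors, was in 0 of the 9 and in 0.423% of all promoters. The single half-site, which both of these contain, was in 3 of the 9, Acadm, Acadvl and Cpt1a, and in 5340 of all promoters (16.3%). These 3 promoters are shown because they hold the only matches, with the half-site in capitals, read as TGACCT where it lies on the other strand. The Acadm promoter is chr3:153944594-153944893 on the minus strand, with the half-site 249 bases before the start. That of Acadvl is chr11:70015379-70015678, also on the minus strand, with the half-site 87 bases before the start. The Cpt1a promoter is chr19:3323051-3323350 on the plus strand, with the half-site 94 bases before the start.
Acadm: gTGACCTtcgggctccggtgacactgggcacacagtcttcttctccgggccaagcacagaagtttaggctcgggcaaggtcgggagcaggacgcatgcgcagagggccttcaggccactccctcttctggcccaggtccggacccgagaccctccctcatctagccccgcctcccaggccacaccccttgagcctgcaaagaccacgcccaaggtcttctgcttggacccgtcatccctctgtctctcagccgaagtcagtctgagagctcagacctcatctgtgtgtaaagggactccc
Acadvl: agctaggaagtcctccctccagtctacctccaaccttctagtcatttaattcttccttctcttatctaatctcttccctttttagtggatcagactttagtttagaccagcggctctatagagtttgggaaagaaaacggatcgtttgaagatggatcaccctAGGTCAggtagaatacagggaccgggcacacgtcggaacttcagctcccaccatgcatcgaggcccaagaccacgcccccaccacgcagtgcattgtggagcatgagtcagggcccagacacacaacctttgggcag
Cpt1a: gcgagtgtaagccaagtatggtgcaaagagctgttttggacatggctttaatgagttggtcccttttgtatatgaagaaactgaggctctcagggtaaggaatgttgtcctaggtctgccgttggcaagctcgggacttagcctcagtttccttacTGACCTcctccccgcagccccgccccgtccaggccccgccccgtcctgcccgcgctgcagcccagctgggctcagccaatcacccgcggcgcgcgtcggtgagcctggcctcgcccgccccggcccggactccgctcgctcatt
A match is a string of letters and not a site at which binding was measured, and none of these 3 genes differed between mutants and controls at the threshold used below. The longer elements are so rare among all promoters that their absence here says little of these genes. Looser forms of them, and bases outside these promoters, were not searched.

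A level is log2 of the processed signal after subtraction of the array's own 75th percentile. A change is a difference of group means on that scale, mutant minus control, with the standard error (SE) or 95% interval of a limma fit over all arrays, and a gene is called where its Benjamini-Hochberg adjusted p over the 19178 features is under 0.05. Kdm3a itself was read first, as a check of the genotypes that reaches only as far as its transcript is lost, since where its probes lie relative to the mutated stretch is not known. On the brighter of its 2 probes the level was 2.90 ± 0.07 (SD, n = 3) and 0.62 ± 0.17 in the females, control then mutant, and 2.86 ± 0.16 and 0.91 ± 0.18 in the males. The second Kdm3a probe passed background on the 3 arrays of each control group and on 0 of the mutant arrays, and was at least 6.06-fold lower in mutant females and at least 4.07-fold lower in mutant males. These bounds set the control mean against the lowest signal well above background on each mutant array. The share of spots well above background was 58.0% to 65.2%. The arrays lay on 3 slides. The first held the 3 control males and mutant male 1, the second control females 1 and 2 beside mutant males 2 and 3, and the third all mutant females beside control female 3. The 75th percentile of the raw signal also differed with group, from 142.9 to 220.4 in control males up to 267.7 to 298.5 in mutant females. Control female 3 had the lowest array weight, an estimate of array quality, at 0.195 where the other arrays lay between 0.380 and 3.12. The fit of these weights stopped before it converged, and this array was the only control female on the third slide. Of 9 gonadal somatic markers, among them Nr5a1, Gata4, Wt1, Lhx9, Emx2, Nr0b1 and Cbx2, 7 were well above background on all 12 arrays. None of the 9 was called in any mutant comparison, and their changes were above 0 in 8 of 9 in males and 9 of 9 in females, with medians of 0.24 and 0.28. All 12 probes of the followed genes were well above background on all 12 arrays and 0 were saturated, so every change below was measured on both sides.

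Of the 10 genes, Apoc1 fell in the mutants of both sexes, and the receptor, its coactivator and the 7 enzymes showed no change that passed the test. In males 1 of the 10 was called, where 0.469% of all features were. In females it was again 1, where 0.355% of all features were, and for the change averaged over the sexes 1, where 1.12% were. The median change of the 10 genes was -0.07 in males, -0.17 in females and -0.13 on average, and that of all features was -0.05 in each of the 3. Changes below 0 were seen in 6 of the 10 in males and 9 of the 10 in females, and of all features 55.3% and 56.4% were below 0. At an unadjusted p under 0.05 limma gave 1 of the 10 in males, 2 in females and 3 on average, where 11.9%, 10.4% and 23.6% of all features passed. With the unconverged array weights limma called 1 of the 10 in males, 3 in females and 5 on average. Of all features 26.9%, 32.1% and 55.1% were then called.

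**Figure D1:**
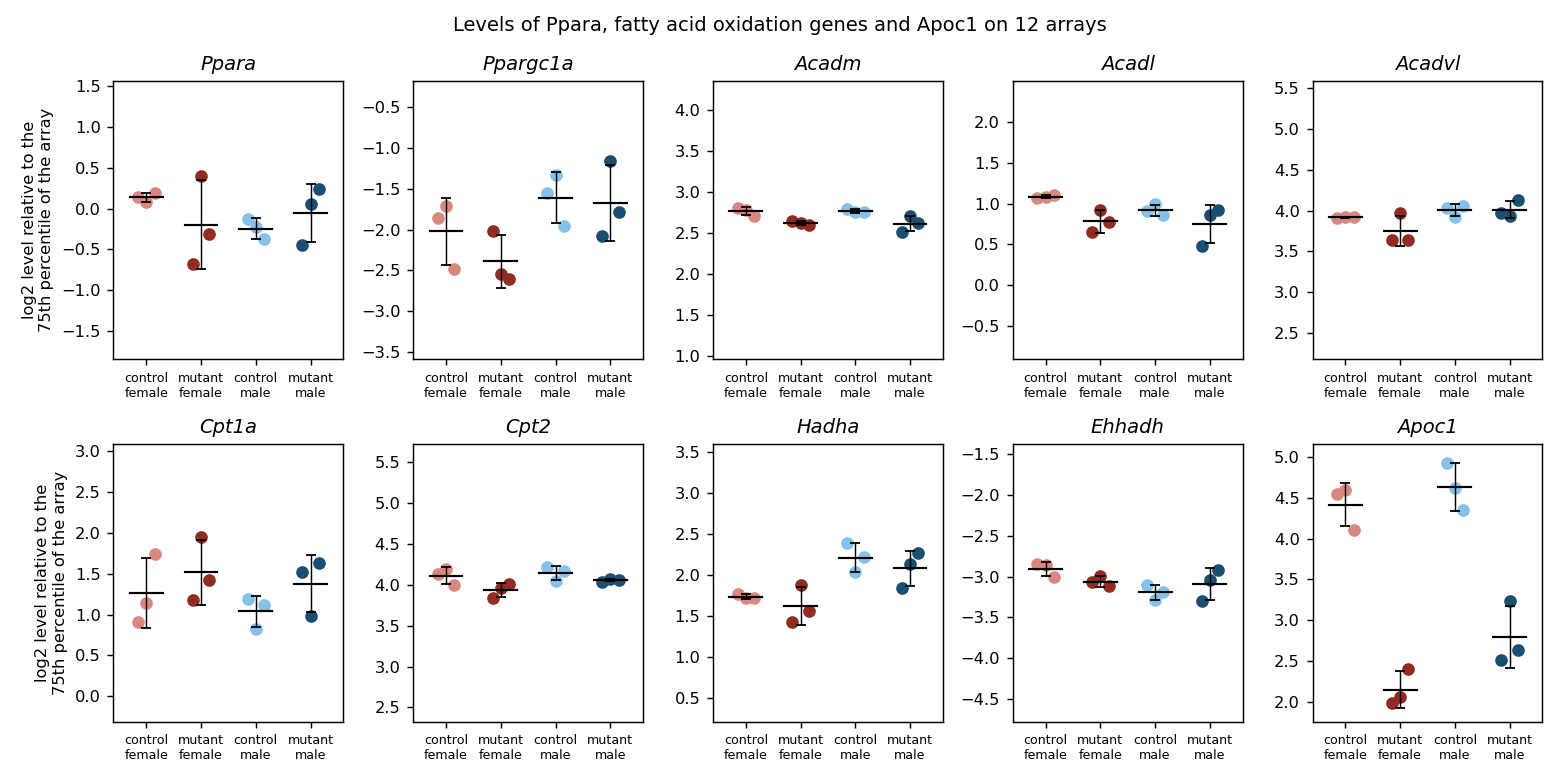
Level of each gene on the 12 arrays, in log2 units relative to the 75th percentile of the array, with the mean and SD of each group of 3 embryos (bars). Every panel spans the same number of log2 units; the control and mutant embryos of Apoc1 lie apart in both sexes, and in the other 9 panels the groups overlap or lie close together.

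The level of Apoc1 was 4.55, 4.59 and 4.11 in the control females against 1.99, 2.06 and 2.41 in the mutant females. The control males had 4.93, 4.61 and 4.35 against 2.52, 3.23 and 2.63 in the mutant males. Every mutant embryo was below every control embryo of its sex, and also below every control of the other sex. The signals before scaling showed the same separation: 4401, 6015 and 4826 in control females against 1185, 1212 and 1420 in mutant females, and 4354, 4150 and 4487 in control males against 1172, 1644 and 1370 in mutant males. Across the arrays the signals of the mutants thus lay between 1172 and 1644 and those of the controls between 4150 and 6015.

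The fall of Apoc1 in females was -2.26 (SE 0.22, 4.80-fold, adjusted p = 0.000913 in limma), the feature with rank 15 by p. In males the change was -1.84 (SE 0.22, 3.57-fold, limma adjusted p = 0.00479, rank 23). Averaged over the sexes it was -2.05 (SE 0.16, 4.14-fold, limma adjusted p = 7.04e-05, rank 17). The mutant effect on Apoc1 differed between the sexes by 0.43, males minus females, with a 95% interval from -0.27 to 1.13 (limma adjusted p = 1.00). For that difference 0 of the 10 genes and 0 of all features (0.0%) were called by limma, and 710 features had an unadjusted p under 0.05 (3.7%). Among the 19178 features 40 (0.209%) were called lower in both sexes, Apoc1 included.

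Where 1 slide held both genotypes of a sex, the fall was of like size. On the first slide mutant male 1 was 2.11 below the mean of the 3 control males, and on the third the mean of the 3 mutant females was 1.96 below control female 3. With slide in the limma fit the adjusted p was 0.0278 in males and 0.0701 in females, so the call in females was lost. In that fit the change of each sex is by construction the difference within the slide that held both its genotypes. The fit thus repeats the 2 differences just given, and each rests on 1 array on 1 side, mutant male 1 or control female 3. The same holds for every change of a single sex given below with slide as a block. In males the call was lost where only the groups compared were fitted (-1.84, limma adjusted p = 0.0623).

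**Figure D2:**
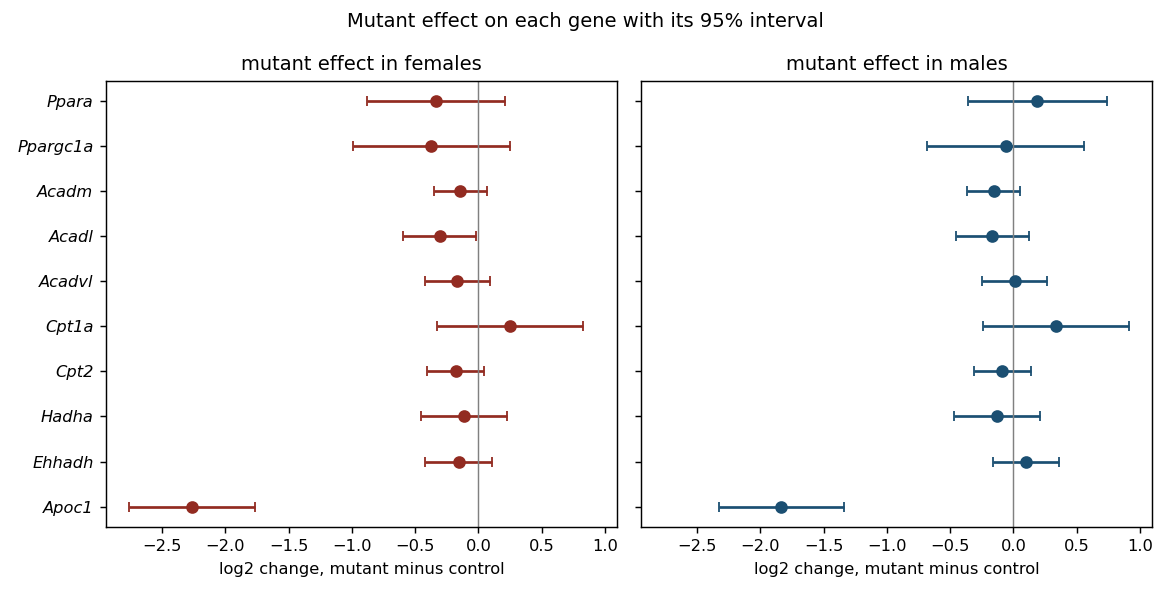
Change of each gene, mutant minus control on the log2 scale, in females (left) and males (right), with the 95% interval of the limma fit over 12 arrays. Apoc1 lies at -2.26 in females and -1.84 in males, and the other 9 genes lie between -0.37 and 0.34.

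Few markers of the cell types known for Apoc1 were well above background throughout. Of 8 hepatocyte markers on the array, 2 were well above background on all 12 arrays, and Ttr and Apoa1 were so on 0. The summed signal of the 8, in multiples of the 75th percentile, was 0.80 to 0.98 in the control females against 0.40 to 0.74 in the mutant females, which did not overlap. In males it was 0.93 to 1.33 in controls against 0.75 to 3.61 in mutants. The high value was mutant male 2, with a level of 1.46 for Afp, the fetal liver protein alpha-fetoprotein, where the other 11 arrays lay between -4.79 and -1.49. The same array had the highest Apoc1 level of the mutants, and without it the male change of Apoc1 was -2.05. Of the 3 hepatocyte markers tested 0 were called, with 3 changes below 0 in females and 1 below and 2 above 0 in males. Ahsg was the marker below 0 in both sexes. Its levels were 0.02, -0.02 and -0.50 in control males against -0.60, -1.40 and -1.53 in mutant males, without overlap. In females they were -0.92, -1.52 and -0.94 against -1.79, -1.78 and -1.34, controls first, which overlapped. Of 10 macrophage and leukocyte markers on the array, 3 were well above background on all 12 arrays. Their summed signal overlapped in both sexes, at 1.05 to 2.74 in the control females against 0.60 to 2.53 in the mutant females, and 0.83 to 3.20 in the control males against 1.45 to 3.25 in the mutant males. Of 7 macrophage markers tested 0 were called, with 7 changes above 0 in males (median 0.53) and 3 above and 4 below 0 in females (median -0.13). Among the 7, Adgre1 entered the tests only through the mutant males, well above background on 3 arrays there and on 1 of the control males. Its rise in males is therefore partly given by the filter. Of 9 endothelial markers 0 were called, with 8 above 0 in males (median 0.56) and 8 below 0 in females (median -0.45).

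Steroid-producing cells, which also express Nr5a1, were represented by 11 markers on the array, 9 of them well above background on all 12 arrays and the adrenal enzyme gene Cyp21a1 on 0. Their summed signal overlapped between genotypes, at 25.7 to 34.0 and 23.3 to 29.2 in control and mutant females and 27.8 to 30.2 and 27.5 to 30.6 in control and mutant males. The sum was carried mostly by the electron carrier genes Fdx1 and Fdxr, the brightest of the list. Of the 10 tested, 8 had changes below 0 in males and 9 in females, and the median of their average changes was -0.41. Cyp11a1, Mc2r and Akr1b7 stood at -0.53, -0.68 and -0.73 on average and were not called (limma adjusted p = 0.138, 0.0735 and 0.147). Of the 10 only Star, the carrier of cholesterol into the mitochondrion, was called. It changed by -0.60 on average (SE 0.11, limma adjusted p = 0.0211), a call lost in 8 of 21 alternative settings. The markers that went the other way were Fdxr and, in males, Cyp17a1. The mean level of Fdxr was 3.58 and 3.67 in females and 3.57 and 3.71 in males, control then mutant. That of Cyp17a1 was 1.04 and 1.64 in males and 1.78 and 1.48 in females. The mesonephros was dissociated with the gonad, and the CD271 sort is meant to leave its epithelium behind; the share that remained was not measured. The summed signal of 12 mesonephric epithelium markers was 41.3 to 48.1 in the control males against 50.3 to 66.1 in the mutant males, without overlap, and 46.2 to 53.8 against 40.6 to 50.2 in females, with overlap. The keratin genes Krt8 and Krt18 were the brightest of these. None of those markers was called: of 12 tested, 11 had changes above 0 in males (median 0.66) and 4 in females (median -0.11). The summed signal of 10 erythroid markers ran from 24.2 to 868 over the arrays and overlapped between all groups. The part of any of these cell types in the fall of Apoc1 was not tested, and in bulk RNA fewer cells of a type and less RNA per cell cannot be told apart.

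Apoc1 lies in a cluster of apolipoprotein genes with Apoe, Apoc2 and Apoc4. Its 8 neighbours on each side in RefSeq gene order were examined after its own values had been seen. Of these 16 genes 12 were tested, and 0 were called in either sex or on average. Their average changes ran from -0.55, at Apoc4, to 0.48, at Bcam. Apoe, the lipoprotein ligand next to Apoc1, had levels of 4.18, 4.29 and 4.10 in the control females against 3.79, 3.81 and 3.88 in the mutant females, without overlap. In males its levels were 4.16, 4.26 and 4.31 in controls and 3.77, 4.39 and 4.18 in mutants, which overlapped. The change of Apoe was -0.36 in females and -0.13 in males, and -0.25 on average (SE 0.10, limma adjusted p = 0.196). Apoc4 changed by -0.77 in females and -0.33 in males (average limma adjusted p = 0.170). On the far side of Apoe, Tomm40, a pore of the mitochondrial outer membrane, and the adhesion gene Nectin2 had average changes of 0.31 and 0.33. Apoc2 was not analysed here.

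**Figure D3:**
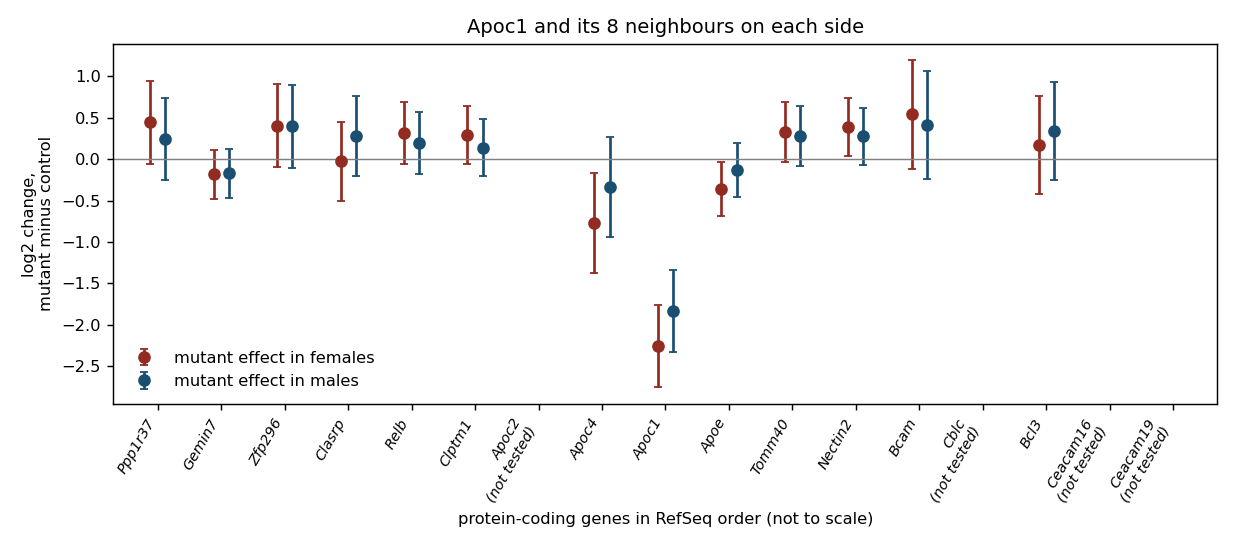
Change of Apoc1 and of the 12 tested genes among its 8 neighbours on each side, mutant minus control on the log2 scale, with 95% intervals, in females and males. Genes stand in RefSeq order and not to scale; Apoc1 lies at -2.26 and -1.84, and its neighbours' average changes run from -0.55 to 0.48.

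Ppara itself did not change by the test. Its level was 0.14, 0.08 and 0.19 in the control females against -0.68, 0.40 and -0.31 in the mutant females. The control males had -0.13, -0.23 and -0.38 against -0.45, 0.05 and 0.23 in the mutant males. The mutant embryos of each sex lay on both sides of their controls. By group mean the order was control females at 0.14 ± 0.06 (SD, n = 3), mutant males at -0.05 ± 0.35, mutant females at -0.20 ± 0.55 and control males at -0.24 ± 0.12, and neighbours in this order differed by less than the larger of their SDs. The change was -0.33 in females (95% interval -0.88 to 0.21, limma adjusted p = 0.536) and 0.19 in males (-0.36 to 0.74, limma adjusted p = 0.678), so a 1.5-fold fall lies within the female interval and a 1.5-fold rise within the male one. With slide as a block the male change turned to -0.20 and the female one was -0.39.

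Over the 12 arrays and 12038 genes well above background on all of them, the genes with the highest Pearson correlation with Ppara were Tcp11l2 (r = 0.901), Gas6 (0.867), Slc52a3 (0.862), Klf8 (0.845) and Tmem171 (0.841). The lowest were Mllt11 (-0.857), Tmem62 (-0.842) and Tmc7 (-0.839). Among the other 9 genes r with Ppara was highest for Acadl (0.714), Ehhadh (0.661) and Acadvl (0.484), was 0.385 for Cpt1a, and was 0.151 for Apoc1 and -0.053 for Ppargc1a. These are descriptions over arrays that share slide, group and brightness.

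The coactivator Ppargc1a was measured by 2 probes, which disagreed. On the brighter probe the levels were -1.86, -1.71 and -2.48 in the control females against -2.02, -2.54 and -2.61 in the mutant females. The control males had -1.55, -1.34 and -1.95 against -2.07, -1.16 and -1.79 in the mutant males. These overlapped in both sexes, with changes of -0.37 in females and -0.06 in males (limma adjusted p = 0.541 and 0.910). The dimmer probe gave 0.08 in females and 0.60 in males (adjusted p over probes 0.433 in males by limma), so a direction for this gene was not established. With slide as a block the female change of the brighter probe also turned, to 0.09, and the male one was -0.46.

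The carnitine palmitoyltransferases load long-chain fatty acids onto carnitine at the outer membrane (Cpt1a, the main point of control) and unload them inside (Cpt2). Cpt1a was the one gene of the 10 with changes above 0 in both sexes, 0.34 in males (95% interval -0.24 to 0.92) and 0.25 in females (-0.33 to 0.83). Its levels overlapped: 1.19, 0.83 and 1.11 in control males against 1.53, 0.98 and 1.63 in mutant males, and 0.91, 1.14 and 1.74 in control females against 1.18, 1.95 and 1.42 in mutant females. In control female 3 the level stood above those of the other 2 control females. The second Cpt1a probe gave 0.02 in males and 0.24 in females. With slide as a block the female change turned to -0.23, the value of the third slide alone, while the male one was 0.48. For Cpt2 the intervals were narrow, with a change of -0.09 in males (-0.31 to 0.14) and -0.18 in females (-0.40 to 0.05).

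The acyl-CoA dehydrogenases take the first step of each round of oxidation, on medium (Acadm), long (Acadl) and very long chains (Acadvl). Acadl had levels of 1.07, 1.08 and 1.11 in the control females against 0.65, 0.92 and 0.77 in the mutant females, without overlap. In males the levels were 0.91, 0.99 and 0.86 in controls and 0.49, 0.85 and 0.92 in mutants, which overlapped. Its change was -0.31 in females (SE 0.13, unadjusted p = 0.0390, limma adjusted p = 0.474) and -0.17 in males (limma adjusted p = 0.517). The male value rested on mutant male 1, without which it was -0.03. Averaged over the sexes it was -0.24 (SE 0.09, limma adjusted p = 0.186).

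Acadm, the medium-chain enzyme, varied little within a group. Levels of 2.80, 2.79 and 2.71 in the control females stood against 2.65, 2.62 and 2.60 in the mutant females. Those of the control males were 2.79, 2.76 and 2.75 against 2.52, 2.71 and 2.62 in the mutant males. All mutants lay below all controls of their sex, by a small margin. The change was -0.14 in females and -0.16 in males, and -0.15 on average (SE 0.07, unadjusted p = 0.0476, limma adjusted p = 0.208). With Apoc1, Acadm made 2 of the 10 genes whose genotypes did not overlap in males, where 20.4% of all features did not. In females Apoc1, Acadm and Acadl made 3 of the 10, where 12.8% did not. Acadvl changed by 0.01 in males and -0.17 in females (limma adjusted p = 0.966 and 0.520), and by -0.03 in males with slide as a block.

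Hadha, the subunit of the trifunctional protein that takes the next steps on long chains, changed by -0.13 in males and -0.12 in females (limma adjusted p = 0.648 and 0.706). Ehhadh, the peroxisomal bifunctional enzyme, changed by 0.10 in males and -0.16 in females (limma adjusted p = 0.647 and 0.544), the male value turning to -0.11 with slide as a block. Its probe was dim, with signals of 16.7 to 36.4 where the lowest signal well above background on an array was 6.59 to 8.41. Of the 9 genes other than Apoc1, 6 had 95% intervals within 1.5-fold in either direction in males, 5 in females and 7 on average. The exceptions on average were Ppargc1a and Cpt1a. For the 7 genes a change of over 1.5-fold, averaged over the sexes, is outside the interval, and for smaller changes the number of arrays limits the precision.

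Between the sexes 0 of the 10 genes were called in controls, where 0.177% of all features were, and 0 in mutants, where 0.13% were. At an unadjusted p under 0.05 limma gave 2 in controls, where 10.8% of all features passed, and 4 in mutants, where 11.5% did. In controls 4 of the 10 did not overlap between the sexes, and of all features 16.0% did not. In mutants it was 2 of the 10, against 22.8%. Hadha was higher in males in both genotypes, by 0.48 in controls (SE 0.15, unadjusted p = 0.0106, limma adjusted p = 0.402) and 0.46 in mutants (limma adjusted p = 0.365). Levels of 1.77, 1.72 and 1.72 in the control females stood against 2.39, 2.03 and 2.22 in control males. Between control males and control females Apoc1 differed by 0.22 (limma adjusted p = 0.672), and between mutant males and mutant females by 0.64 (limma adjusted p = 0.369), higher in males both times. No slide held both sexes of 1 genotype, so no value within a slide can be had for these comparisons.

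Wider lists, taken from textbook roles, placed the 10 genes among the rest of their pathways. The lists hold these genes too, so their counts and medians include values given above. Of 18 genes of mitochondrial beta-oxidation, all tested and with Acadm, Acadl, Acadvl and Hadha among them, 0 were called in either sex or on average. Their changes averaged over the sexes were below 0 in 17 of 18, with a median of -0.18, beside -0.05 for all features, of which 56.4% were below 0. The exception was Acads, for short chains, at 0.23. The smallest p was that of Hadhb, the partner subunit of Hadha, with levels of 4.00, 4.12 and 3.62 in the control females against 3.34, 3.50 and 3.46 in the mutant females. The control males had 4.08, 4.08 and 4.11 against 3.59, 3.95 and 3.76 in the mutant males. Its genotypes did not overlap in either sex, and its average change was -0.40 (SE 0.10, limma adjusted p = 0.0967). Next came Acadsb, for short branched chains (-0.29), Acad11 (-0.27) and the enoyl-CoA isomerase Eci2 (-0.27), with limma adjusted p-values of 0.159 to 0.170. Between 15 and 17 of the 18 were below 0 in the alternative settings that keep 1 probe a gene, and the median ran from -0.22 to -0.12.

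Peroxisomal beta-oxidation went no one way: 15 of 16 genes were tested, 0 were called, and the median average change was -0.03. The reductase Decr2 stood at -0.33 and the oxidase Acox3 at 0.37. Of the 13 genes of the carnitine shuttle and acyl-CoA synthesis 12 were tested and 0 called, with a median of -0.04. The carnitine carrier Slc25a20 stood at -0.26 and the acyl-CoA synthetase Acsl1 at 0.18.

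Among the PPAR receptors, their partners and coactivators, 17 of 18 genes were tested and 0 called, with 14 changes above 0 and a median of 0.18. Esrrb, an estrogen-related receptor known from pluripotent cells, entered the tests through the mutant groups. Its probe passed background on all 3 arrays of each mutant group, on 1 of the control males and on 0 of the control females, so its difference is not given as a value. Esrrb is counted in the 17, the 14 and the median, although its direction followed from the way it entered the tests. The coactivator Pprc1 stood at 0.46 and the receptors Rxra and Rxrb, with which Ppara pairs, at 0.50 and 0.34.

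Of 19 known target genes of Ppara outside beta-oxidation 13 were tested and 0 called, with a median average change of -0.24 and 7 of 13 changes below 0. Several well-known targets were at background here: Fgf21, Cyp4a14, Fabp1, Acot3 and Ucp3 were well above background on 0 arrays. Vnn1, the lipid droplet protein Plin2, the fatty acid transporter Cd36 and Acot1 stood at -0.37, -0.31, -0.40 and -0.24, with limma adjusted p-values of 0.141 to 0.206. For Cd36 the change was -0.77 in females and -0.03 in males. Average changes of 6 of the 13 were above 0.

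**Figure D4:**
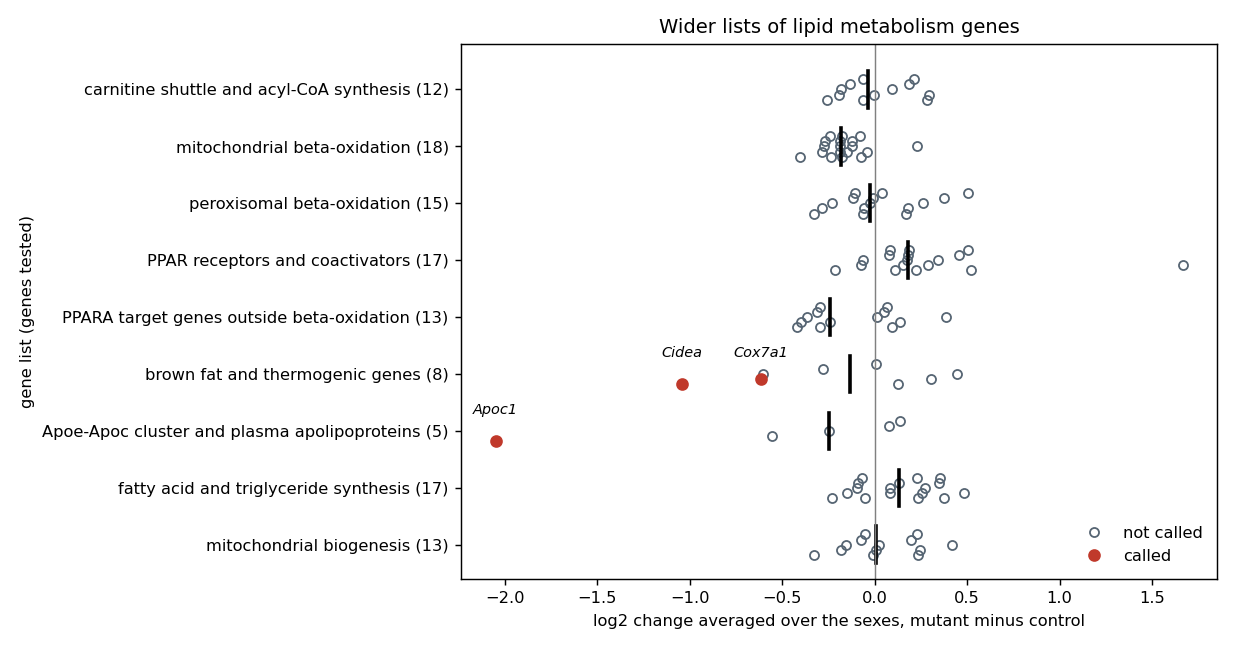
Change averaged over the sexes, mutant minus control on the log2 scale, of each tested gene (circles) in 9 lists of lipid metabolism genes, with the median of each list (black bars); filled circles are called by limma at an adjusted p under 0.05. The mitochondrial beta-oxidation genes lie between -0.40 and 0.23, and Apoc1, Cidea and Cox7a1 are the called genes. The circle of Esrrb sets mutants against controls mostly at background, so its place is not a measured size.

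Brown fat and thermogenic genes gave the other calls among these lists. Of 14 genes 8 were tested and 2 called on average, Cidea and Cox7a1, where 1.12% of all features were. The list went no one way: average changes were above 0 in 4 of the 8 and below 0 in 4, with a median of -0.14. Cidea, a lipid droplet protein of brown fat, had levels of -1.46, -2.14 and -2.49 in the control males against -4.17, -3.27 and -3.40 in the mutant males. In females the controls had -3.81, -3.87 and -3.60 and the mutants -4.16, -4.18 and -4.45. The genotypes did not overlap in either sex, and the control males stood above the other 3 groups. The change was -1.58 in males (SE 0.27, limma adjusted p = 0.0353) and -1.04 on average (limma adjusted p = 0.0291), and control males were 1.73 above control females (limma adjusted p = 0.0427). Cox7a1, a subunit of cytochrome c oxidase found in muscle and brown fat, fell by 0.62 on average (SE 0.13, limma adjusted p = 0.0494). Its levels were 1.82, 1.65 and 1.21 against 0.92, 0.72 and 0.94 in females, and 2.07, 1.92 and 1.64 against 1.19, 1.58 and 1.26 in males, controls first, without overlap. These calls were near the threshold: that of Cidea in males was lost in 16 of 22 alternative settings, its sex difference in controls in 15 of 22 (0.66 to 2.64), and that of Cox7a1 in 15 of 21.

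Of 17 genes of fatty acid and triglyceride synthesis 0 were called, with 11 average changes above 0, 6 below 0 and a median of 0.13. Scd1, Srebf1, Acly and Fasn stood at 0.35, 0.38, 0.27 and 0.48, with limma adjusted p-values of 0.196 to 0.213. Fasn had no value in mutant male 1, so its male change rests on 2 mutants. Of 13 genes of mitochondrial biogenesis 0 were called, with a median of 0.01. Of 11 apolipoprotein genes 5 were tested, and Apoc1 was the one called. Apom, the apolipoprotein that carries sphingosine 1-phosphate, stood at 0.85 in males and -0.57 in females, neither of them called.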

How the data were processed

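RNA of 12 single embryos was amplified linearly, labelled with Cy3 and hybridised to 1-colour arrays, per the labels' protocols. Agilent Feature Extraction is named in the submitters' processing notes, and its version (10.5.1.1) and the array design (014868, mm9) come from the file headers. The intensity that the authors deposited is a processed signal, linear and background-subtracted, with no scaling between arrays, per the file headers.

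Control and outlier spots were dropped, and log2 of this deposited intensity was centred on each array's 75th percentile. Of 41174 probes 27479 matched 18749 symbols by accession in RefSeq (GRCm38.p6), from which gene order and promoters came too. A probe entered the tests if every array of some group had it well above background, and a gene was represented by its brightest such probe. Group means were fitted over 12 arrays in limma 3.58.1 (R 4.3.3), with Benjamini-Hochberg adjustment at 0.05. The fit was tested on simulated data. The p-values measure the spread between single embryos of a group. Litters are not stated in the labels.

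The genes and lists were chosen with earlier results of these data known, so lists are described by counts and medians and not tested. The text names the 10 genes, Kdm3a, up to 4 genes of each list with the smallest p averaged over the sexes, any list gene past the threshold, and the genes most like Ppara. Acads, the neighbours of Apoc1, and untested or marker genes were named after their values were seen. Some genes that the rule names are not reported here. Alternatives were quantile normalization, normexp (offset 50), other filters on dim probes, every probe separately, only the groups compared, array weights, replicate number or slide as a block, array brightness as a covariate, and leaving out each array.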

Additional observations from a re-analysis of the deposited data

How the results depend on the processing

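Apoc1 kept its direction in every alternative setting, from -2.11 to -1.65 in males, -2.47 to -1.96 in females and -2.23 to -1.82 on average. Leaving out 1 array at a time gave -2.05 to -1.69, -2.41 to -2.18 and -2.16 to -1.97, all called. The number of the 10 genes called fell to 0 in females with slide as a block and to 0 in males with only the groups compared. Array weights raised it to 3 in females (Acadl and Cpt2 besides Apoc1) and 5 on average (Acadm, Acadl, Cpt1a and Cpt2 besides Apoc1), and the fit of those weights stopped before it converged. The cause of these shifts was not tested.

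Over all features, the counts called in males, females and on average were 90, 68 and 214. They were 5168, 6148 and 10571 with array weights, 52, 13 and 57 with slide as a block, 56, 42 and 115 with array brightness as a covariate, 35 and 44 in males and females without a filter on dim probes, and 21 and 34 with only the groups compared. Leaving out 1 array gave 26 (without control male 1) to 93 in males and 31 (without mutant female 1) to 128 in females. On average it gave 126 (without control female 2) to 4794. All 3 maxima were those without control female 3. The difference between the sexes gave 8 with slide as a block and 1 with array brightness. The sex comparisons, 34 in controls and 25 in mutants, gave 290 and 202 with array weights, 13 and 7 with slide as a block, 10 and 10 with only the groups compared, and 19 to 40 and 11 to 38 without 1 array. In mutants they gave 11 with probes well above background on all arrays, 16 with the replicate block and 10 with array brightness.

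No general pairing by replicate number was seen. Of 18 same-numbered pairs 6 had deviations with r over 0.1, and r ran from -0.53 to 0.43. Of 12 arrays 3 correlated best with their own number. With 3 arrays a group and slides partly shared, these correlations cannot exclude a pairing. With the replicate block the 10 genes gave 1, 1 and 1 calls in males, females and on average, and all features 64, 48 and 175.

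Among list genes, the average call of Cidea was lost in 12 of 21 settings, and its male change ran from -2.14 to -0.60. Among the 10 genes, the dimmest probes were the second of Ppargc1a and that of Ehhadh.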
